A study of Mus musculus with 4 samples.

Results

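Ubiquitin-specific proteases form the largest family of deubiquitinases, the enzymes that cut ubiquitin from proteins, and their mouse genes carry symbols that begin with Usp and a number. Members were the protein-coding genes of the GRCm38 RefSeq table with such a symbol, and 56 of 21887 protein-coding genes met the rule. Their open chromatin was read from ATAC-seq peaks, sites where a transposase can insert sequencing adapters, merged over 4 libraries. A region belonged to a member if it lay inside the gene or within 1 kb of either end. This gave 61 regions of 15328, at 44 of the 56 genes. One member by symbol, Usp6nl, is no protease but a GTPase-activating protein of the Rab family, and it was kept because the rule includes it.

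The 4 libraries came from G1ER cells, a mouse erythroblast line that descends from Gata1-null cells and carries GATA1 fused to an estrogen receptor domain. Wild-type G1ER cells gave 2 libraries, and G1ER cells labelled Chd7-/- gave 2. CHD7, a remodeller of nucleosomes with chromodomains, is absent by label from the knockout cells, and the comparison asks where accessibility differs between the genotypes. All cells grew with erythropoietin and stem cell factor and without treatment, with 50000 cells per library. The labels add a time, 1 h for replicate 1 of each genotype and 2 h for replicate 2. The labels do not say whether replicates were separate cultures, so p-values measure the spread between these libraries, which may be technical. The knockout libraries share a code in their descriptions, so genotype and clone cannot be told apart.

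Deposited lists held 11084 to 12443 nuclear peaks per library, and total reads were unknown. The lowest local background, a proxy for depth, was between 0.787 and 1.08 fragments, with wild-type replicate 1 lowest. With 0 regions at the Chd7 gene, the genotype could not be checked from the peaks. Of 15 erythroid marker genes, 8 held a region called in all 4 libraries, among them Gata1, Klf1, Epor and Alas2. Of 5 megakaryocyte genes 2 did, and of 6 granulocyte and macrophage, 5 lymphoid, 4 mast cell and 4 embryonic stem cell genes 0 did. The mast cell gene Cpa3 held 1 region, called in the knockout libraries alone, and its part in the results was not tested.

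Ubiquitin is attached to proteins by a chain of E1, E2 and E3 enzymes, and its removal by a deubiquitinase can rescue a protein from the proteasome or switch off a signal. Several family members act on chromatin: USP22 removes ubiquitin from histone H2B as part of the SAGA coactivator, and USP3, USP16 and USP21 act on histone H2A. Red cell precursors depend on ubiquitin and the proteasome to clear proteins as they mature.

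The sequences before the start sites of 7 members are shown because they span the range of the family, from strong open promoters to a group of gene copies without a called region. Each is the 150 bases before the RefSeq start site (GRCm38.p6), written 5' to 3' in the direction of the gene. Capitals mark matches on either strand to any of 12 short motifs: CCGGAA for ETS factors, the longer ETS site ACTTCCGG, which contains it on the other strand, AGATAA for GATA factors, TGTGGT for RUNX factors, the variant TGCGGT also for RUNX factors, then GGGCGG for SP or KLF factors, CACGTG for E-box factors, GCGCATGC for NRF1, TGACGTCA for the CREB family, CCAAT for NF-Y, AAGATGGCG for YY1, plus the TATA box TATAAA, which was added after the sequences were seen. The stretches are chr2:30982129-30982278 (plus strand) for Usp20, chr11:118290245-118290394 (minus) for Usp36, chr9:48985235-48985384 (plus) for Usp28 and chr1:74505822-74505971 (minus) for Usp37. Those of Usp24, Usp17lc and Usp17la are chr4:106316063-106316212, chr7:103416546-103416695 and chr7:104856866-104857015, all on the plus strand.
Usp20: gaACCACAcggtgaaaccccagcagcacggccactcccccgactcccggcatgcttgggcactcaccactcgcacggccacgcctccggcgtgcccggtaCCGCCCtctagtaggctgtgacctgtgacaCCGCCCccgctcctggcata
Usp36: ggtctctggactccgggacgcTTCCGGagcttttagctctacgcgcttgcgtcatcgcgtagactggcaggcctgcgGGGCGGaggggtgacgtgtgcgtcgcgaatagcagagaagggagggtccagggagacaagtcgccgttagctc
Usp28: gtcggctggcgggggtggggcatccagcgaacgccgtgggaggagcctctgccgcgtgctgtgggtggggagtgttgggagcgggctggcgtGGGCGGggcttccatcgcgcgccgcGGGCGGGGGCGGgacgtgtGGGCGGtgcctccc
Usp37: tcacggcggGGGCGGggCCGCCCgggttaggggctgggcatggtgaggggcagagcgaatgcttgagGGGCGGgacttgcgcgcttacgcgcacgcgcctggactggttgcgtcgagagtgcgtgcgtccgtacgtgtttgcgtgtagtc
Usp24: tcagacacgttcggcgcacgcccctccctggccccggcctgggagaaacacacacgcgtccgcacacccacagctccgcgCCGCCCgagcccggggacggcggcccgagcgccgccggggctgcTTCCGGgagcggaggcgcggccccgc
Usp17lc: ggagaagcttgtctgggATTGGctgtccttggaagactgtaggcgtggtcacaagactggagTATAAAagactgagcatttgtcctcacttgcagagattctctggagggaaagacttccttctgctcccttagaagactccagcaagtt
Usp17la: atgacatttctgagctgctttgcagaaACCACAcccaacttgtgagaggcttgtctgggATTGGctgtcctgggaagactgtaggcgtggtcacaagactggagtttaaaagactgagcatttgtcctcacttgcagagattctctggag

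The first 4 belong to regions near the top of each library, and all 4 hold GGGCGG. Usp20 also holds TGTGGT on the opposite strand, and Usp36 and Usp24 hold CCGGAA on the opposite strand. Usp24 has a start as rich in G and C, but one of the weakest regions of the family. The Usp17lc and Usp17la stretches hold 1 CpG each, against 13 to 24 in the other 5. A motif match describes the letters and is not evidence of binding.

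Most of the family had an accessible region in every library. A region called in all 4 libraries was present at 39 of 56 members (69.6%), against 36.6% of all protein-coding genes, and 35 of these members had 1 such region and 4 had 2 (Usp2, Usp5, Usp21 and Usp33). Gene length was not taken into account. The median span was 56050 bp in the 39 and 7581 bp in the 12 members with no region. Counting gene ends alone, such a region was present at 30 members (53.6%), against 32.0% of all protein-coding genes. Of the 61 member regions, 43 (70.5%) were called in all 4 libraries, 2 in 3, 4 in 2 and 12 in 1. Among all regions linked to a gene in the same way, 63.3% were called in all 4. These shares describe a list chosen by symbol and were not tested.

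**Figure D1:**
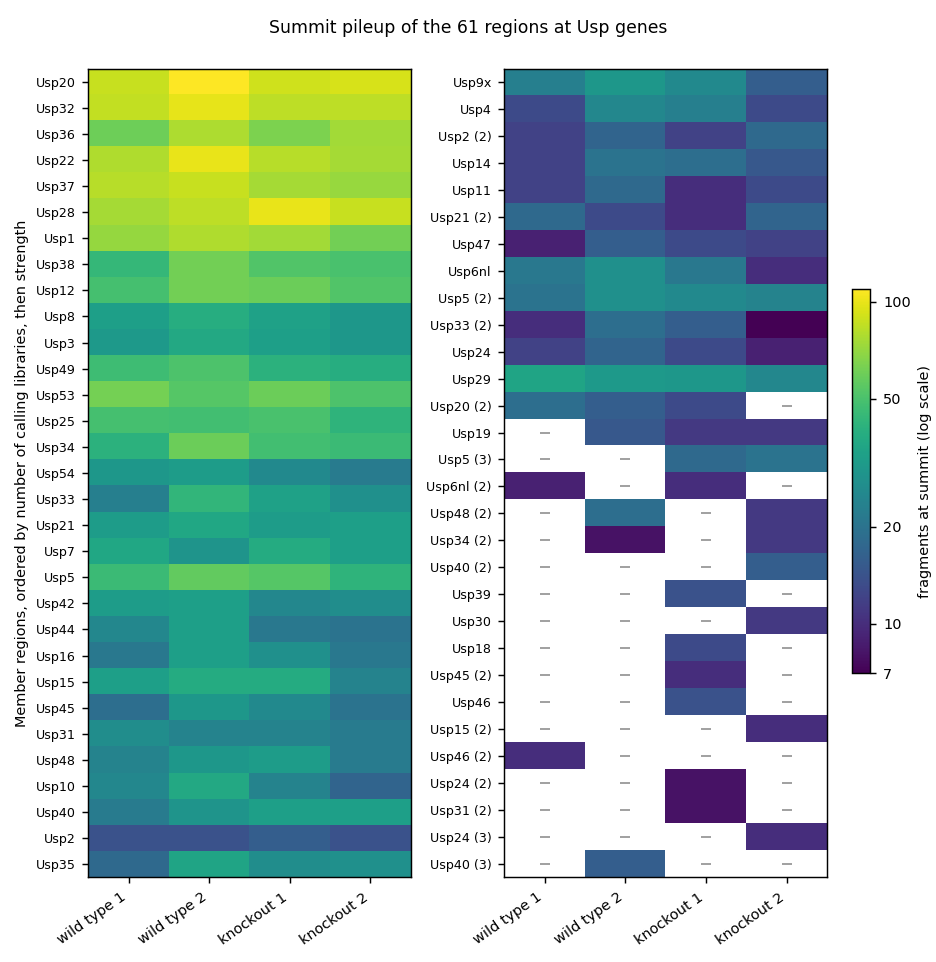
Summit pileup (fragments, colour on a log scale) of the 61 member regions in wild-type and knockout replicates 1 and 2; rows are regions, a dash marks no call, and a number in brackets marks a further region of the same gene. The first 43 rows are called in all 4 libraries, and of the 18 others 12 are called in 1 library, 10 of these in a knockout library.

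Role groups held 2 to 12 genes, were set with earlier results of these data known, and were not tested against each other. A region called in all 4 libraries was present at 69.6% of the family and 36.6% of all protein-coding genes. In the group of DNA repair, replication and p53 control, 8 of 8 genes had such a region. They are Usp1, Usp7, Usp10, Usp11, Usp28, Usp45, Usp47 and Usp48. The histone and transcription group had such a region at 9 of 12 genes, the signalling group at 6 of 8, the endosome and secretory group at 5 of 6 and the cell cycle group at 4 of 5. Of the genes for the proteasome and free ubiquitin, 3 of 4 had one: Usp5, which recycles free ubiquitin chains, Usp14, which works on the proteasome, and Usp25. Usp13, a relative of Usp5, had none. Of 3 genes long classed as catalytically inactive, Usp53 and Usp54 had one and Usp50 did not. In the mitochondrial pair, Usp35 had one and Usp30, which opposes mitophagy at the outer membrane, had a single region called in knockout replicate 2 alone.

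No region was found at 12 members. They were all 5 Usp17l genes (Usp17la, Usp17lb, Usp17lc, Usp17ld and Usp17le), the germline genes Usp26 and Usp9y, and Usp13, Usp27x, Usp43, Usp50 and Usp51. The Usp17l genes, first described as DUB genes induced by cytokines in blood cells, lie on chromosome 7 between 103250086 and 104862667. The region nearest to any of them was 46524 bp from Usp17la and was called in 1 library. These genes are near copies: over the aligned parts of the RefSeq promoter windows, 4 of them were 86.4% to 96.8% identical in pairs. How reads that align to several places were counted is not given in the sources used here, so calls at these copies are uncertain. Usp27x and Usp51, relatives of Usp22 that can share its SAGA partners, lay 53005 and 486438 bp from the nearest region.

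Signal at the 43 shared regions varied widely. The pileup is the number of fragments over the summit, recovered from the deposited fold enrichment and p-value of each peak. It ran from 9 to 87 and from 13 to 110 in the wild-type libraries, and from 10 to 100 and from 7 to 93 in the knockout libraries. The member medians were 30, 33, 32 and 27, against 24, 28, 26 and 23 over the 8704 regions with a recovered pileup in all 4 libraries. Strength here is the percentile of a region's fold enrichment within its own list, taking the lowest of the 4 libraries. The member median was 61.6, against 48.4 for all 8705 regions called in all 4 libraries and 55.7 for the 5951 of these at a gene end. Member regions were 315 to 1033 bp wide, with a median of 721 bp against 635 bp for all shared regions.

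**Figure D2:**
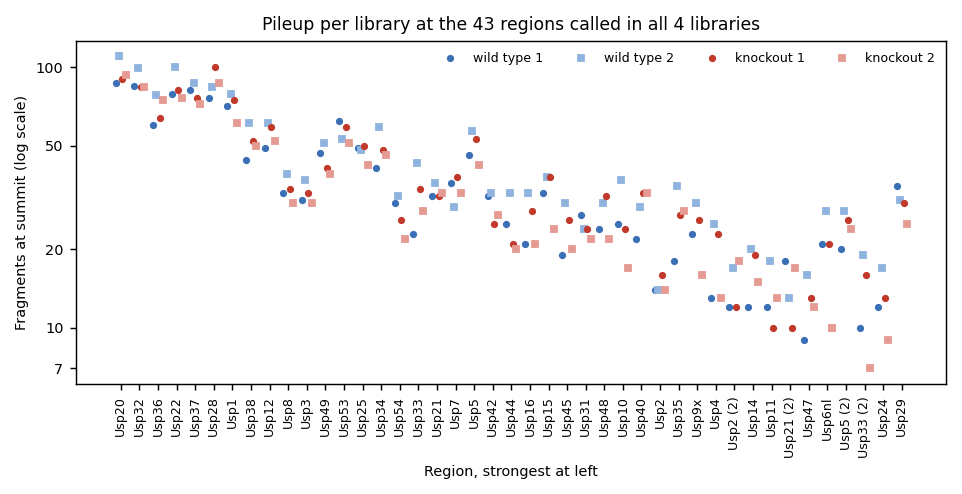
Fragments at the summit (log axis) for each of the 43 shared regions in wild-type (blue) and knockout (red) replicates, ordered by strength with the strongest at the left. Values of the 4 libraries lie close together at the strong regions on the left, from Usp20 to Usp1, and spread more at the weak ones on the right.

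Of the 43, 8 lay above the 90th percentile in every library. The strongest was at the end of Usp20, a protease that acts on HIF-1 alpha and on recycled receptors (chromosome 2, 30981691 to 30982540). The region also lay at the gene BC005624. Its pileups, here and below with replicate 1 first, were 87 and 110 in wild type against 90 and 93 in knockout. Pileups carry each library's depth, so genotypes were ordered on log2 pileups after subtraction of the library median. On that scale knockout replicate 1 was lowest and knockout replicate 2 highest at Usp20, with both wild-type values between them. The deposited fold enrichments ran from 15.7 to 16.7. All fold enrichments given are the authors' values from lists called separately.

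Next came Usp32, whose product sits on Golgi and endosomal membranes (chromosome 11, 85139683 to 85140535, also at 1700125H20Rik), with pileups of 85 and 99 in wild type against 84 and 84 in knockout. After centring, the wild-type values again lay between those of the knockout replicates. Usp36, a nucleolar protease (chromosome 11, 118289972 to 118290732), had 60 and 78 in wild type against 64 and 75 in knockout, and after centring the wild-type values lay between the knockout ones here too. At Usp22 (chromosome 11, 61174823 to 61175593), the SAGA protease, pileups were 79 and 100 in wild type against 82 and 76 in knockout. Here the wild-type replicates differed more from each other than the genotypes did, and the genotypes overlapped.

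Usp1, which removes ubiquitin from FANCD2 and PCNA with its partner WDR48 (chromosome 4, 98923019 to 98923902), had 71 and 79 in wild type against 75 and 61 in knockout. Usp38 (chromosome 8, 81014635 to 81015355) had 44 and 61 in wild type against 52 and 50 in knockout. Usp12, another partner of WDR48 (chromosome 5, 146794496 to 146795329), had 49 and 61 in wild type against 59 and 52 in knockout. After centring, the genotypes overlapped at Usp1 and Usp38, while at Usp12 both knockout values were just above both wild-type values. Usp37, which stabilises cyclin A, had its region inside the annotated gene (chromosome 1, 74505557 to 74506461), at the 94.8th percentile, with 82 and 87 in wild type against 76 and 72 in knockout.

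The weakest shared regions were at Usp29, Usp24, Usp33, Usp5 and Usp6nl, all under the 10th percentile. Usp29, a paternally expressed gene beside the imprinted gene Peg3, had a region 792 bp outside its end and also within 1 kb of Peg3 (chromosome 7, 6729453 to 6729767). Its pileups were not low, at 35 and 31 in wild type against 30 and 25 in knockout. Its local background was 7.36 and 7.48 in wild type against 8.16 and 7.30 in knockout, against a median of 1.87 over all shared regions, and the deposited fold enrichment was therefore only 3.13 to 4.31. At Usp24 (chromosome 4, 106315938 to 106316339), pileups of 12 and 17 in wild type against 13 and 9 in knockout were low in their own right.

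Among shared regions with a RefSeq start site on file, most had their summit near it, though not more often than links over all genes. A start site was on file for 43 of 56 members, which covered 32 of the 43 shared regions. The summit lay within 300 bp of the start in 21 of these 32 (65.6%) and within 1000 bp in 26 (81.2%), against 74.0% and 80.9% of 7409 links of shared regions to genes. Of the 26 summits within 1000 bp, 21 lay upstream and 5 downstream (80.8% upstream, against 78.7% over all such links).

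**Figure D3:**
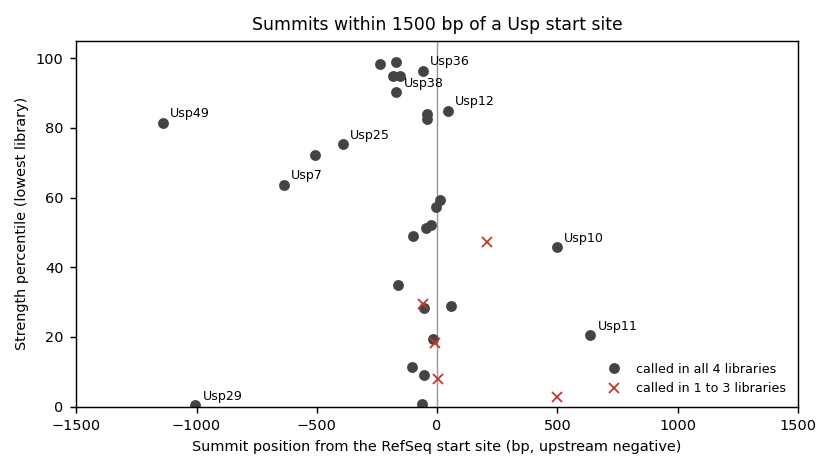
Summit position from the RefSeq start site (bp, upstream negative) against strength percentile, for member regions near a start; filled points are called in all 4 libraries, crosses in 1 to 3. Points gather just upstream of the start, with Usp49, Usp29 and Usp7 further upstream and Usp10 and Usp11 downstream.

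Of 11 shared regions inside a gene and away from its annotated ends, 8 belonged to genes with a start site on file, and 5 of these 8 overlapped a promoter window, the 250 bases before and 50 after a start. They were at Usp37, Usp45, Usp2, Usp4 and Usp34, so these inside regions lie at starts within the gene span. The summit at Usp7, the protease of p53 and MDM2, was at −638 bp from the start on file. The other 2, at Usp40 and Usp54, were at 46856 bp and −22604 bp. A total of 10 shared regions also lay inside or within 1 kb of another protein-coding gene, such as Ppox and Ufc1 at Usp21, Cdca3 at Usp5 and Kctd21 at Usp35, and the data do not assign them to 1 gene.

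Composition differed between member promoter windows with and without a called region, with some overlap. The 43 genes had 44 promoter windows, of which 23 overlapped a region called in all 4 libraries, 3 overlapped a region called in fewer (Usp19, Usp30 and Usp46) and 18 overlapped none. The 23 open windows held 17 to 54 CpG dinucleotides, with a median GC of 69.7%. Of the 18 without a region, 14 held 12 or fewer CpG, with a median GC of 47.7% over the 18. The 14 include the windows of the Usp17l near copies, where calls are uncertain. The 4 exceptions were Usp7 with 63 CpG, Usp13 with 36, Usp27x with 25 and Usp29 with 17. The Usp7 window ended at 8738592, just short of the shared region of Usp7, which began at 8738610 and ranked at the 63.7th percentile. Several of the 18 windows belong to genes with a region called in all 4 libraries outside that window: Usp6nl, Usp7, Usp10, Usp11, Usp29, Usp40, Usp49 and Usp54. A window without a region is thus not a gene without open chromatin. Over all protein-coding windows, 81.0% of 6573 open ones held at least 17 CpG and 71.6% of 13304 without a region held 12 or fewer. The difference is therefore common to many genes.

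**Figure D4:**
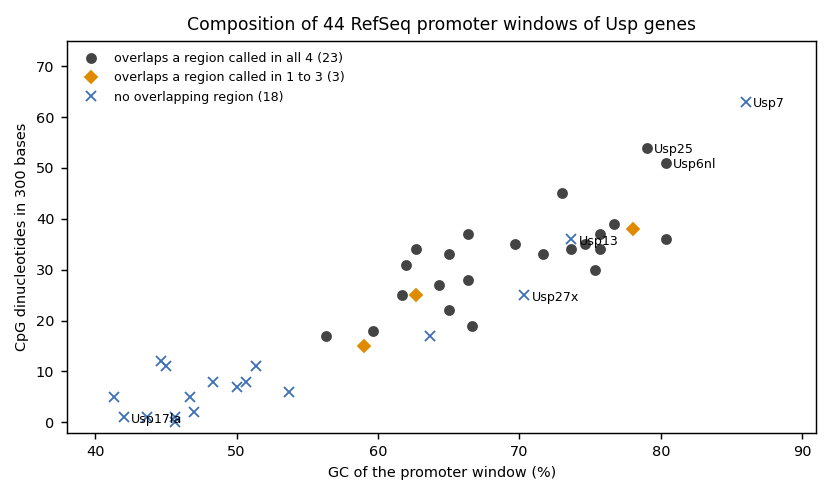
Number of CpG dinucleotides against GC content (%) in the 44 RefSeq promoter windows of members, marked by whether a called region overlaps the window. The 23 windows open in all 4 libraries hold 17 or more CpG, while Usp7, Usp13 and Usp27x are CpG-rich without an overlapping region and Usp17la lies at the low end.

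GGGCGG was present in 20 of the 23 open windows (87.0%), against 73.9% of open protein-coding windows and 35.7% of all 32851 windows. CCGGAA was in 6 of 23 (26.1%, against 37.6% of open windows and 14.9% of all), and CACGTG in 5 of 23 (21.7%, against 11.7% and 7.15%). CCAAT was in 3 of 23 (13.0%, against 42.9% and 37.4%) and in 11 of the 18 windows without a region (61.1%, against 36.4% of all protein-coding windows without one), 4 of them the near copies of Usp17l. TGTGGT was in 1 of 23 (4.35%, against 11.1% of open and 16.8% of all windows), at Usp20, and in 7 of the 18 without a region (38.9%, against 17.3%), which include all 4 Usp17l windows. TATAAA was in 0 of 23, against 4.78% of open and 13.6% of all windows, and in 4 of the 18 (22.2%, against 17.1%), at Usp17lb, Usp17lc, Usp17ld and Usp40. AGATAA, the core of GATA sites, was in 0 of 44 member windows, against 11.2% of all windows and 4.76% of open ones. The remaining motifs were in 1 to 4 of the 44 windows each, and no share was tested.

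Between genotypes, no member region passed. Pileups were compared with limma on a log2 scale with a pseudocount of 1, after subtraction of the library median, over 8704 regions called in all 4 libraries. In that fit 0 of 43 member regions passed an adjusted p (Benjamini-Hochberg) of 0.05 with knockout higher and 0 with knockout lower, where the background was 0% in each direction, since 0 of 8704 regions passed. At an unadjusted p under 0.05, 1 member region was higher in knockout (background 5.02%) and 2 were lower (background 3.68%). The median difference, knockout minus wild type, was −0.02 at member regions and 0.02 over all tested regions, and 20 of 43 were higher in knockout. The median half-width of the 95% interval at member regions was 0.45 on the log2 scale. That is the precision of 1 region taken alone. Larger differences than this, at Usp6nl, Usp10 and Usp40, did not pass after adjustment over 8704 regions. On pileups simulated with counting noise alone, the same fit called only 13 of 100 regions changed 2-fold. That noise was not matched to the spread between these libraries, so this share need not hold here. Changes of 2-fold or less could be missed. When libraries were instead scaled by their lowest background, the median over all tested regions shifted to −0.21 and 70 of 8704 regions passed, 5 higher and 65 lower. Member regions then had a median of −0.26, with 2 of 43 higher, and 0 passed.

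**Figure D5:**
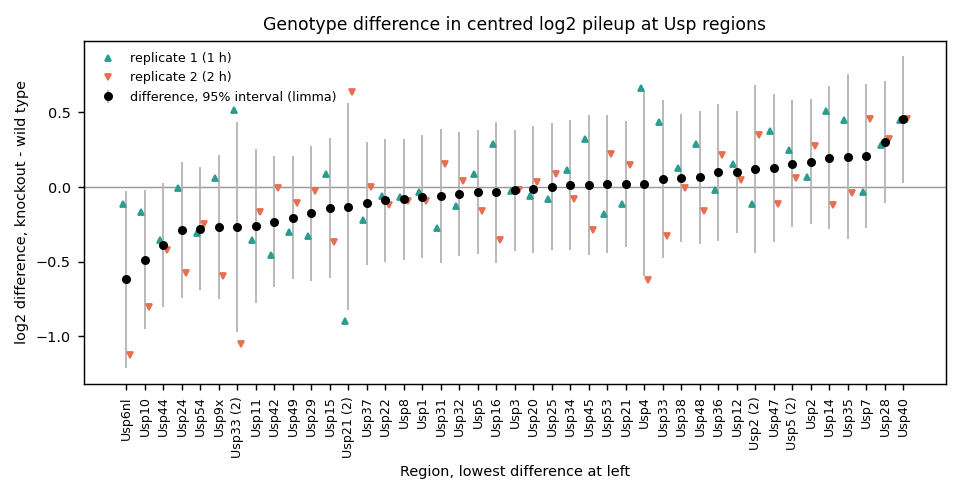
Difference in centred log2 pileup, knockout minus wild type, at the 43 shared regions (black points, with 95% intervals from limma) and the differences within replicate 1 (1 h) and replicate 2 (2 h). Differences run from −0.62 at Usp6nl to 0.45 at Usp40, and the triangles of the 2 replicates lie on opposite sides of 0 at 25 of the 43 regions.

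The region with the lowest difference was at the end of Usp6nl (chromosome 2, 6322331 to 6323081), the gene of the Rab GTPase-activating protein. Its pileups were 21 and 28 in wild type against 21 and 10 in knockout. Knockout replicate 2 stood apart from the other 3 libraries. The difference was −0.62 ± 0.27 (SE; limma adjusted p = 0.545), and it was −0.20 without knockout replicate 2 and −1.03 without knockout replicate 1.

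At Usp10, a protease of p53 and a partner of the stress granule protein G3BP1, the region lay 498 bp into the gene by its summit (chromosome 8, 119910520 to 119911252). Pileups were 25 and 37 in wild type against 24 and 17 in knockout, so both knockout values were below both wild-type values. The difference was −0.49 ± 0.21 (SE; limma adjusted p = 0.544). A region inside Usp44, a protease of histone H2B and the spindle checkpoint (chromosome 10, 93833579 to 93834194), had 25 and 33 in wild type against 21 and 20 in knockout. Its difference was −0.39 ± 0.19 (SE; limma adjusted p = 0.605).

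At Usp24 the difference was −0.29 ± 0.20 (SE; limma adjusted p = 0.756). A region inside Usp54 (chromosome 14, 20640643 to 20641221) had pileups of 30 and 32 in wild type against 26 and 22 in knockout, without overlap. Its difference was −0.28 ± 0.18 (SE; limma adjusted p = 0.731).

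The highest difference was inside Usp40 (chromosome 1, 87961305 to 87961918), far from the gene's ends. Pileups were 22 and 29 in wild type against 33 and 33 in knockout, so both knockout libraries were above both wild-type libraries. The deposited fold enrichments were 7.57 and 7.46 in wild type against 9.77 and 9.71 in knockout. The difference was 0.45 ± 0.19 (SE; 95% interval 0.03 to 0.88; limma adjusted p = 0.534).

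Usp28, which stabilises MYC and takes part in the DNA damage response, had the next highest value, at the gene end (chromosome 9, 48984781 to 48985676). Pileups were 76 and 84 in wild type against 100 and 87 in knockout, and the groups did not overlap. The difference was 0.30 ± 0.18 (SE; 95% interval −0.10 to 0.71; limma adjusted p = 0.691).

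Usp7 (chromosome 16, 8738610 to 8739242) had 36 and 29 in wild type against 38 and 33 in knockout, a difference of 0.21 ± 0.22 (SE; limma adjusted p = 0.851). Usp35 (chromosome 7, 97332008 to 97332656) had 18 and 35 in wild type against 27 and 28 in knockout, a difference of 0.20 ± 0.25 (SE; limma adjusted p = 0.884). Usp14 (chromosome 18, 10029538 to 10030364) had 12 and 20 in wild type against 19 and 15 in knockout, a difference of 0.20 ± 0.21 (SE; limma adjusted p = 0.867). At Usp7, Usp35 and Usp14 the wild-type replicates lay further apart than the genotypes. The direction turned at Usp7 without wild-type replicate 2 (−0.05), and at Usp35 (−0.15) and Usp14 (−0.04) without wild-type replicate 1. All 3 were also below 0 when scaled by background (−0.02, −0.03 and −0.04).

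The labelled times gave genotype differences of opposite sign at 25 of the 43 regions (58.1%), against 45.0% of all tested regions. Among these are 2 weak regions, chosen after their values were seen. The region inside Usp33, a protease of centrosome and receptor control (chromosome 3, 152355373 to 152355767), had pileups of 10 and 19 in wild type against 16 and 7 in knockout. The other was at Usp4, a protease of TGF-beta receptor signalling (chromosome 9, 108347578 to 108348151). Its pileups were 13 and 25 in wild type against 23 and 13 in knockout. In both regions knockout was higher at 1 h and lower at 2 h. A region at Usp21 (chromosome 1, 171287751 to 171288133) went the other way, with centred log2 differences of −0.90 at 1 h and 0.64 at 2 h.

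Over the 43 regions, both knockout libraries were below both wild-type libraries at 8 (18.6%, background 17.3%) and above them at 4 (9.30%, background 21.4%), after centring. The 8 were at Usp6nl, Usp8, Usp10, Usp24, Usp42, Usp44, Usp49 and Usp54, and the 4 at Usp2, Usp12, Usp28 and Usp40. The 10 strongest regions at gene ends (at Usp20, Usp32, Usp36, Usp22, Usp28, Usp1, Usp38, Usp12, Usp8 and Usp3) had differences from −0.09 to 0.30, with limma adjusted p-values of at least 0.691. Their pileups ran from 30 to 110.

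Among the histone proteases, the H2A group showed no region past the threshold. Usp3 (chromosome 9, 66592740 to 66593354) had pileups of 31 and 37 in wild type against 33 and 30 in knockout. Usp16 (chromosome 16, 87454793 to 87455362) had 21 and 33 in wild type against 28 and 21 in knockout. Both genes had overlapping genotypes. Usp21 had 1 region near each end, and the stronger (chromosome 1, 171280896 to 171281625, also near Ppox) had 32 and 36 in wild type against 32 and 33 in knockout. The weaker (171287751 to 171288133, also near Ufc1), which covers the start on file, had 18 and 13 in wild type against 10 and 17 in knockout. Usp49, an H2B protease (chromosome 17, 47629150 to 47630137), had 47 and 51 in wild type against 41 and 39 in knockout, without overlap.

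Regions called in 1 genotype only were few and weak. Knockout-only regions, with a call in each knockout library but none in wild type, numbered 1 of 61 (1.64%, background 2.71%). The converse, wild-type-only regions, numbered 0 (background 2.25%). The single knockout-only region lay 677 bp outside 1 end of Usp5 and also within reach of Tpi1, a glycolysis gene (chromosome 6, 124814099 to 124814342). Its pileups were 18 and 20 in knockout, with deposited fold enrichments of 5.90 and 6.07. At the other end of Usp5, a region called in all 4 libraries (124828840 to 124829767) had 46 and 57 in wild type against 53 and 42 in knockout. The knockout-only count was 2 without wild-type replicate 2, where Usp19 joined, 5 without knockout replicate 1 and 7 without knockout replicate 2, and it was 0 when only gene spans were used. The wild-type-only count was 1 without wild-type replicate 1 (Usp40), without wild-type replicate 2 (Usp46) or without knockout replicate 1 (Usp20).

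More member regions had calls in knockout alone when a single library was enough. Calls in 1 or 2 knockout libraries and no wild-type library were found at 11 of 61 member regions (18.0%). The share was 15.5% over all regions and 11.8% over gene-linked regions. The converse held at 2 (3.28%, against 11.2% of all and 9.81% of gene-linked regions), inside Usp40 and Usp46. These shares were not tested. Of the 11, 9 lay at a gene end, whereas 30.8% of the 1409 gene-linked regions with this pattern did. They included the starts of Usp46, a partner of WDR48, and Usp30, with summits at −10 and −60 bp from the start on file, and 1 end each of Usp39, a splicing factor, and Usp18, which removes the ubiquitin-like ISG15. The rest of the 9 were at Usp5, Usp24, Usp31, Usp40 and Usp45, and those inside a gene were at Usp15 and Usp24. The Usp40 region (chromosome 1, 88008198 to 88008446) had its summit 206 bp into the gene. It was called in knockout replicate 2 alone, with a pileup of 16 and a −log10 q of 9.69. All 11 were weak, with pileups of 8 to 20 and deposited fold enrichments of 4.14 to 7.35. At 6 of them the deposited −log10 q reached 5, and at the 2 wild-type ones it did not. A missing call says only that the peak did not pass in that list.

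Per library, the wild-type replicates had 46 and 48 called member regions and the knockout replicates had 53 and 51. The same lists held 11084 and 12043 peaks in wild type against 12443 and 11376 in knockout. The groups did not overlap, with means of 47.0 ± 1.41 (SD, n = 2) and 52.0 ± 1.41 (SD, n = 2), and the exact two-sided permutation p was 0.333, the smallest that 2 libraries against 2 can give. The difference of 5 was 7 at 1 h and 3 at 2 h. It was 3.5 with lists of equal length and 0 when each call needed a −log10 q of 5.

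The remaining member regions not called everywhere were seen in 2 or 3 libraries of both genotypes. A region inside Usp20 (chromosome 2, 31006455 to 31006897) was called in all libraries except knockout replicate 2, with pileups of 19, 16 and 13. The region at the start of Usp19, which encodes a protease of the endoplasmic reticulum, was called in all except wild-type replicate 1, with 15, 11 and 11 (chromosome 9, 108490505 to 108490949, also near Lamb2). Regions inside Usp48 and Usp34 were called in the 2 h libraries of both genotypes and a region inside Usp6nl in the 1 h libraries of both. None of the 18 regions outside the shared set ranked above the middle of its lists, the highest being the region at the end of Usp40, at the 47.1th percentile.

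The rest of the pathway was read from lists of related genes. Of 41 other deubiquitinases, 29 (70.7%) held a region called in all 4 libraries, against 36.6% of all protein-coding genes. So did 11 of 12 partners of members and 22 of 27 ubiquitin, E1 and E2 genes. In the limma fit 0 of 32, 0 of 17 and 0 of 23 of their regions passed, with 2, 1 and 1 at an unadjusted p under 0.05. Over all tested regions the share at that unadjusted p was 8.70%. Their median differences were 0.08, 0.03 and −0.09. The region of Wdr48, the cofactor shared by USP1, USP12 and USP46, had a difference of 0.72 ± 0.22 (SE; limma adjusted p = 0.387), and the shared regions of Usp1 and Usp12 did not pass either.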

How the data were processed

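ATAC-seq peak lists of 4 libraries were used, 2 per genotype, with groups and replicate numbers from the sample titles. The submitters' processing notes list MACS2 2.1.0 and Bowtie2 2.2.1 and give no role for either. The deposited peak names give GRCm38 and 1 list per library; for the threshold, control, read shift and duplicates the answer is not given in the sources used here. Deposited columns hold a score (about 10 times the −log10 q), a fold enrichment (the ratio of pileup to background at the summit) and −log10 p and q values, all by the authors' caller.

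Pileup and background were recovered from the fold enrichment and p, taking the fold enrichment as pileup plus 1 over background plus 1. This worked for 99.99% of nuclear peaks within 0.001 of −log10 p, and it assumes that the caller did not rescale pileups. Total depth was unknown. Peaks that overlapped or touched were merged (bedtools 2.31.1 gave the same 15328 regions). Genes, start sites and promoter sequences came from RefSeq GRCm38.p6 tables; entries matched 43 of 56 members. A region at a gene end is one that overlaps the 1 kb on each side of it. limma 3.58.1 in R 4.3.3 was run without a block; the replicate number also marks the labelled time, and its deviations were not correlated between genotypes (r = 0.0022 over 8704 regions). Recovery and the fit were tested on simulated data, with counting noise alone between simulated libraries. The fit called 13 of 100 regions changed 2-fold and 99 of 100 changed 4-fold, with 0 false calls. Python 3.11.15, pandas 2.3.3, scipy 1.17.1 and Biopython 1.88 were used.

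Named regions were those called in 1 genotype only, the 10 strongest at gene ends, the 5 largest rises and falls, the histone proteases and the Usp17l genes. Most of those called in 1 genotype only are given by name and range, without values per library. Others complete small counts and were chosen after their values were seen. Members, lists and role groups were chosen with earlier results of these data known. Alternatives were gene spans alone, a −log10 q of at least 5, lists of equal length, windows of 250 bp either side of summits, a pseudocount of 5, scaling by background, deposited fold enrichment, summed summits, a replicate block and leaving out single libraries.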

Additional observations from a re-analysis of the deposited data

Results flagged for a closer look

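Of the 10 regions with the largest rises and falls, 3 had genotype differences of opposite sign at the 2 labelled times, and the difference between the times was not tested because each holds 1 library per genotype. At Usp7 the centred log2 difference, knockout minus wild type, was −0.035 at 1 h and 0.45 at 2 h. At Usp35 it was 0.45 at 1 h and −0.039 at 2 h. At Usp14 it was 0.51 at 1 h and −0.12 at 2 h. Opposite signs were found at 25 of 43 member regions (58.1%), against 45.0% of all tested regions.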

How the results depend on the processing

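The number of member regions (61; 55 to 60 without 1 library) and of members with a region called in every library (39) stayed within 1.5 times under every alternative run. The knockout-only count was 0 with gene spans alone and 1 to 7 when 1 library was left out. The wild-type-only count was 1 (Usp24) when each call needed a −log10 q of 5, and 0 to 1 without 1 library. The difference in called member regions was 0 with that threshold, 4 to 6 without 1 library and 5 with the replicate block. Over all tested regions, 2 passed with the replicate block and 70 with scaling by the lowest background, and 0 passed without any 1 library. No member region passed under any of these. With the replicate block the lowest adjusted p at a member region was 0.440, against 0.534 without it, and the block changed no call at a member. The median difference at member regions was −0.26 with scaling by background, 0.037 with the deposited fold enrichment and −0.075 to −0.0052 without 1 library; the cause was not tested. Of 98 values of the 10 largest rises and falls under the alternatives, 92 kept their sign. The 98 include the replicate block, which cannot move a difference when each block holds 1 library per genotype. Summed summits also left all 10 values unchanged. Under scaling by background Usp7 had −0.025, Usp35 −0.029 and Usp14 −0.038. Without 1 library the range was −0.049 to 0.47 at Usp7, −0.15 to 0.56 at Usp35 and −0.043 to 0.43 at Usp14. A left-out library leaves 1 sample in a genotype, which is then assumed to vary like the other. Weak regions limit what can be seen: at 7 to 20 fragments, calls depend on each list's threshold.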

Other observations

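Outside the family, the other deubiquitinases held 44 regions, the partners of members 21 and the ubiquitin, E1 and E2 genes 28. Of these, 1 was knockout-only and 2 were wild-type-only, where the shares over all regions were 2.71% and 2.25%, and nothing particular to these genes is read from them. One at Bap1, which encodes the nuclear deubiquitinase of histone H2A in the Polycomb complex PR-DUB, was called in both knockout and neither wild-type library. Regions at Yod1, an OTU-family deubiquitinase gene, and at Ube2g1, an E2 gene, were called in both wild-type and neither knockout library. Among regions called in all 4 libraries, the one with the lowest value at Tnfaip3, which encodes the NF-kappaB inhibitor A20, differed by −0.60 ± 0.18 (SE; limma adjusted p = 0.387), and the one at Eif3h, a JAMM-domain subunit of a translation initiation factor, by 0.90 ± 0.25 (SE; limma adjusted p = 0.375). A region at the ubiquitin fusion gene Rps27a differed by 0.52 ± 0.19 (SE; limma adjusted p = 0.484). None of these passed the threshold.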
